A study of Danio rerio with 4 samples.

Results

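The 10 genes described here encode the contractile proteins of slow and fast skeletal muscle fibres in larval zebrafish (Danio rerio). They are 10 of the 27472 genes in the deposited table and were taken by name from its rows for bisphenol C against solvent. The slow genes are the myosin heavy chains smyhc1, smyhc2 and smyhc3. The fast genes are the myosin heavy chains myhz1.1, myhz1.2 and myhz2, the regulatory myosin light chains mylpfa and mylpfb, and the troponin T genes tnnt3a and tnnt3b. Several rows share the cut symbol myhz1 (4 in all), and these were told apart by their gene identifiers.

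Fish of the AB strain were exposed from 4 hours post fertilization (hpf) to 4 µM bisphenol C (BPC, a bisphenol) or to dimethyl sulfoxide (DMSO, the solvent), and RNA was taken at 72 hpf. Each group had 2 libraries, numbered 1 and 3. No transgene or mutation is named for either group. The labels name no dissection, and they do not say how many fish went into a library or whether the libraries came from separate clutches, so the p-values cover library-to-library spread only, some of which may be technical.

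A muscle fibre contracts when myosin heavy chains, the motors of the thick filament, pull on actin, and the troponin complex lets them do so only when calcium rises. Slow fibres are fatigue-resistant and in the zebrafish embryo form a superficial layer of the trunk muscle, while fast fibres make up its deep bulk. Each fibre type uses its own copies of the myosin and troponin genes, so these transcripts are widely used as markers of the fibre types. In RNA from many cells, fewer cells of a type and less RNA per cell cannot be told apart.

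Levels are in FPKM, a fragment count divided by transcript length and by the mapped total of its library. The deposited values summed to 355583 and 355364 in DMSO, and to 422245 and 425611 in BPC. The median gene among the 19873 tested changed by -0.12 on the log2(FPKM + 1) scale. The pair of BPC libraries differed in muscle transcripts. BPC replicate 1 was above BPC replicate 3 for 10 of the 10 members, by 1.12 to 1.64 times with a median of 1.39, while the median over all tested genes was 1.03. In DMSO, replicate 1 was above replicate 3 for 8 of the 10, with a median ratio of 1.05. Skeletal muscle was well represented, since acta1b (skeletal actin) stood at 867.8 and 796 FPKM in DMSO, ckma (muscle creatine kinase) at 1303 and 1152 FPKM, atp2a1 (the fast fibre calcium pump) at 681 and 709.8 FPKM, and actn3b (alpha-actinin 3) at 54.3 and 50.5 FPKM. In BPC, acta1b was at 641 and 414 FPKM, ckma at 1644 and 1221, atp2a1 at 668 and 619, and actn3b at 38.2 and 30.7. Both BPC libraries were below both DMSO libraries for acta1b, atp2a1 and actn3b, with log2 changes of -0.69, -0.11 and -0.60. The same held for 45.1% of all genes tested. For ckma the groups overlapped. They overlapped also for actn3a, the more abundant copy of actn3b, singled out after its values were seen (log2 change 0.04). Of all these marker genes, actn3b was called lower in the test given below (limma adjusted p = 0.0232).

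The members covered a wide range of levels. Ordered by mean FPKM over the 4 libraries, mylpfa ranked 12 among all genes in the table, myhz1.1 19, mylpfb 40, myhz1.2 58, tnnt3b 70, myhz2 90, tnnt3a 152, smyhc1 276, smyhc2 1034 and smyhc3 2835. The fast genes thus lay above the slow myosins in every library. Among neighbours in this order, mylpfb and myhz1.2 overlapped in DMSO, as did myhz1.2 and tnnt3b, while myhz1.2, tnnt3b and myhz2 overlapped in BPC. The 7 fast genes held 2.61 and 2.34% of the total FPKM in DMSO and 2.49 and 1.76% in BPC. The 3 slow myosins held 0.0693 and 0.0706% in DMSO and 0.0666 and 0.0488% in BPC.

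Most of the fibre genes did not pass the test of BPC against DMSO. In limma (a linear model over all genes, on log2 of FPKM + 1, with Benjamini-Hochberg adjustment and a threshold of 0.05), 0 of the 10 members were higher in BPC and 1, smyhc2, was lower. Over all 19873 genes tested, 24.6% were called, 7.06% higher and 17.5% lower. At an unadjusted p under 0.05, 1 member was higher (tnnt3a) and 2 were lower (smyhc2 and smyhc3), against 12.2% and 27.8% of all genes. The libraries of the groups did not overlap for 2 members that were higher in BPC and 3 that were lower, against 23.0% and 45.1% of all genes. The median log2 change of the members was -0.05, which is 0.07 above the median of all genes tested. An exact permutation test of 2 libraries against 2 cannot go below a two-sided p of 0.333, so single values get no such test here. Further runs below leave out each library in turn. Without a DMSO library, the spread within groups comes from the BPC pair alone, and most calls over all genes were lost. A call lost in those runs therefore does not single out a gene. Without a BPC library, the spread comes from the DMSO pair alone. A call gained there takes no account of the spread between BPC libraries.

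**Figure D1:**
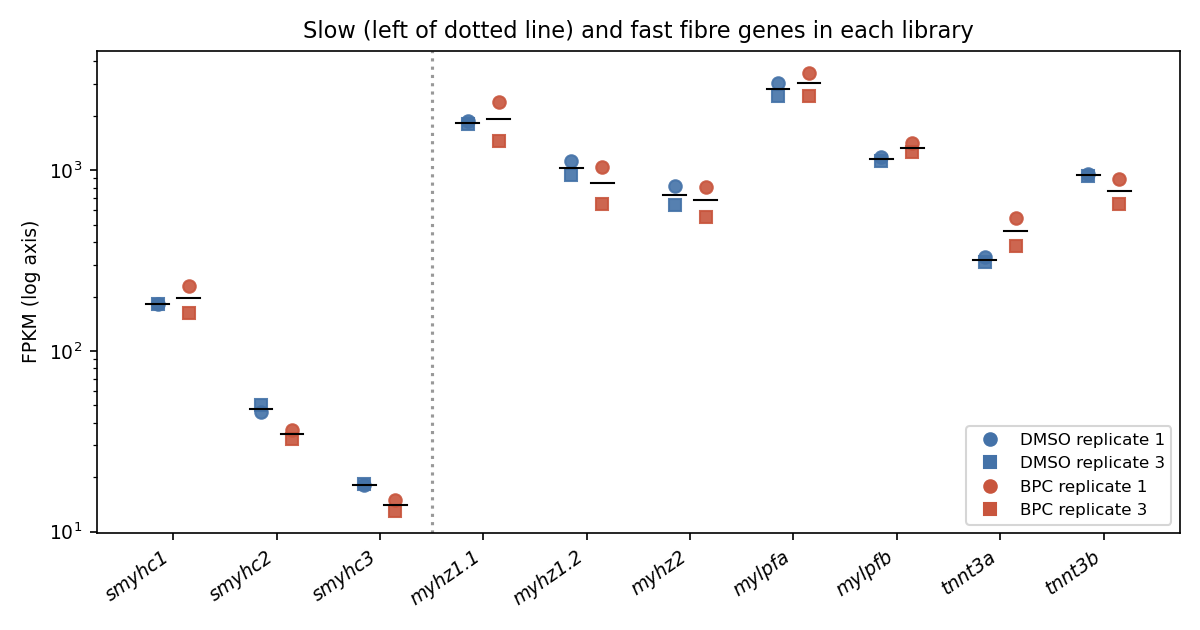
FPKM (log axis) of the 10 fibre genes in each library, with DMSO in blue, BPC in red, circles for replicate 1, squares for replicate 3 and bars for the mean of 2 libraries. The BPC circles lie above the BPC squares for all 10 genes, smyhc2 and smyhc3 are lower in both BPC libraries, and tnnt3a is higher in both.

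Of the 3 slow myosins, 1 was called lower, and it was not the most abundant. The gene smyhc1 (ENSDARG00000099959), the main myosin heavy chain of the first slow fibres, stood at 182.7 and 182.5 FPKM in DMSO replicates 1 and 3 and at 229.6 and 161.9 FPKM in BPC replicates 1 and 3. The BPC libraries lay on either side of the closely matched DMSO libraries. The means were 182.6 ± 0.154 and 195.7 ± 47.9 FPKM (SD, n = 2), and the log2 change was 0.08 (SE 0.18, limma adjusted p = 0.771), with a 95% interval of -0.34 to 0.50. Without BPC replicate 3 the log2 change was 0.33, and without BPC replicate 1 it was -0.17.

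The called gene, smyhc2 (ENSDARG00000103969), had 45.7 and 50.2 FPKM in DMSO and 36.7 and 32.6 FPKM in BPC. Both BPC libraries lay below both DMSO libraries. The means were 48.0 ± 3.16 and 34.6 ± 2.86 FPKM (SD, n = 2), and smyhc2 fell by 0.46 on the log2 scale (SE 0.11, limma adjusted p = 0.0317). Its change stayed below 0 under every alternative run, but the call was lost without the filter on low values (adjusted p = 0.0587), with the libraries centred on their medians (0.0926), without DMSO replicate 1 (0.154) and without DMSO replicate 3 (0.235).

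The third slow myosin, smyhc3 (ENSDARG00000114031), had 18.1 and 18.4 FPKM in DMSO and 15.0 and 13.03 FPKM in BPC. The groups did not overlap. The log2 change was -0.36 (SE 0.11, 95% interval -0.63 to -0.08), and the adjusted p in limma was 0.0646. In RefSeq's zebrafish assembly GRCz12tu the genes smyhc1, smyhc2 and smyhc3 are consecutive, with no other gene between them. Their sequences were not compared here; where copies are near-identical, reads can be assigned to either, so the split between them is uncertain.

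Ratios within a library do not change when a library is multiplied by a single factor, but quantile normalization can change them. The gene smyhc1 made up 74.1 and 72.7% of the summed slow myosin FPKM in DMSO and 81.6 and 78.0% in BPC. The share of smyhc2 was 18.6 and 20.0% in DMSO against 13.03 and 15.7% in BPC, and that of smyhc3 was 7.33 and 7.31% against 5.34 and 6.28%. The BPC libraries lay outside the DMSO libraries for all 3 shares, which are parts of the same sum and so not independent. The ratio of smyhc2 to smyhc1 was 0.250 and 0.275 in DMSO and 0.160 and 0.201 in BPC, a log2 difference of -0.55. The log2 change of smyhc2 less that of smyhc1 was -0.54 with FPKM as deposited and -0.25 after quantile normalization.

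None of the 3 fast myosin heavy chain members (myhz1.1, myhz1.2 and myhz2) was called with FPKM as deposited. The gene myhz1.1 (ENSDARG00000067990) had 1859 and 1796 FPKM in DMSO and 2369 and 1446 FPKM in BPC. BPC replicate 1 was the highest library and BPC replicate 3 the lowest. The means were 1827 ± 44.8 and 1908 ± 652 FPKM (SD, n = 2), with a log2 change of 0.02 (SE 0.25, limma adjusted p = 0.963) and a 95% interval of -0.58 to 0.62. That interval holds changes of either sign for the most abundant fast myosin.

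The other fast myosin members lay somewhat lower in BPC on the mean. The gene myhz1.2 (ENSDARG00000067995) had 1119.8 and 943 FPKM in DMSO and 1044 and 648 FPKM in BPC, with a log2 change of -0.32 (SE 0.24, limma adjusted p = 0.366). The gene myhz2 (ENSDARG00000012944) had 817.5 and 639 FPKM in DMSO and 806 and 553 FPKM in BPC, with a log2 change of -0.11 (SE 0.22, limma adjusted p = 0.732). In both genes the groups overlapped and BPC replicate 3 was the lowest library. Both were called lower after quantile normalization, myhz1.2 at a log2 change of -0.94 (adjusted p = 0.0336) and myhz2 at -0.83 (adjusted p = 0.0314). Without BPC replicate 1, the log2 change of myhz1.2 was -0.66. In GRCz12tu, myhz2, myhc4, myha, myhz1.3, myhz1.2 and myhz1.1 follow one another with no other gene between them, and the split of reads between such copies is uncertain in the same way. Among the 3 fast myosin members, myhz1.1 held 49.0 and 53.2% of the FPKM in DMSO and 56.2 and 54.6% in BPC, while myhz1.2 held 29.5 and 27.9% against 24.7 and 24.5%.

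The slow to fast balance, taken as the summed FPKM of the 3 slow over the 3 fast myosin heavy chains, was 6.49 and 7.43% in DMSO and 6.67 and 7.84% in BPC. The groups overlapped, and the log2 difference of 0.06 was smaller than the spread between libraries of a group (0.15). Replicate 3 was the higher library in each group. Without smyhc1 the ratio was 1.68 and 2.03% in DMSO and 1.23 and 1.72% in BPC, a log2 difference of -0.35 with overlapping groups. Leaving out each of the other 5 genes in turn gave -0.02 to 0.19, the highest without myhz1.1 and the next, 0.14, without smyhc2. Against all 7 fast genes, the slow myosins stood at 2.65 and 3.02% in DMSO and 2.67 and 2.76% in BPC. Fast myosins outside the members entered none of these ratios, among them myhz1.3 at a mean of 658 FPKM over the 4 libraries.

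**Figure D2:**
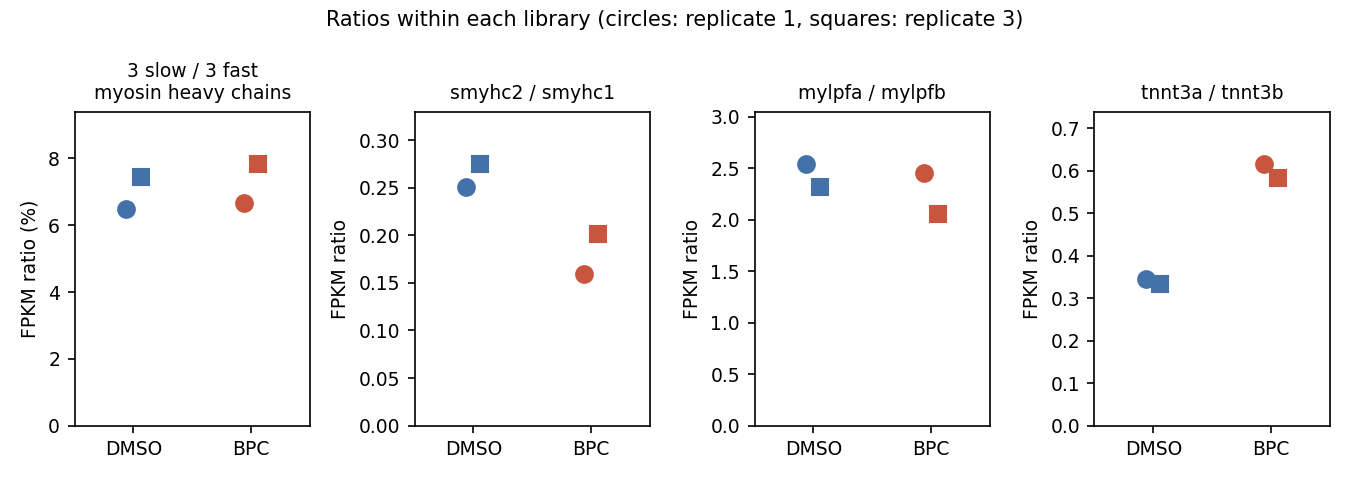
FPKM ratios within each library, with circles for replicate 1 and squares for replicate 3: the 3 slow over the 3 fast myosin heavy chains (in percent), smyhc2 over smyhc1, mylpfa over mylpfb, and tnnt3a over tnnt3b. The groups overlap for the slow to fast ratio and for mylpfa over mylpfb, and they are apart for smyhc2 over smyhc1 (0.160 and 0.201 in BPC) and for tnnt3a over tnnt3b (0.616 and 0.582 in BPC).

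The regulatory light chains, which bind the neck of the myosin heavy chain, gave values near those of DMSO. The gene mylpfa (ENSDARG00000053254) had 3022 and 2585 FPKM in DMSO and 3460 and 2576 FPKM in BPC, with a log2 change of 0.10 (SE 0.21, limma adjusted p = 0.770). The groups overlapped. Its copy mylpfb (ENSDARG00000002589) had 1189 and 1117 FPKM in DMSO and 1411 and 1256 FPKM in BPC, so that both BPC libraries were above DMSO, with a log2 change of 0.21 (SE 0.15, limma adjusted p = 0.347). The ratio of mylpfa to mylpfb was 2.54 and 2.31 in DMSO and 2.45 and 2.05 in BPC, again with overlap. The 3 fast myosins stood at 0.901 and 0.912 times the summed light chains in DMSO and at 0.866 and 0.691 times in BPC.

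The troponin T copies, which tie the troponin complex to tropomyosin, lay on opposite sides of their DMSO levels. The gene tnnt3a (ENSDARG00000030270) had 331 and 309 FPKM in DMSO and 547 and 379.5 FPKM in BPC. Both BPC libraries were above both DMSO libraries, and BPC replicate 1 was much the higher of its pair. The log2 change was 0.51 (SE 0.19, 95% interval 0.06 to 0.96), and the adjusted p in limma was 0.0939. Without BPC replicate 3 the log2 change was 0.77, while without BPC replicate 1 it was 0.25.

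The copy tnnt3b (ENSDARG00000068457) had 957 and 924 FPKM in DMSO and 888 and 652 FPKM in BPC. Both BPC libraries were below both DMSO libraries. The log2 change was -0.30 (SE 0.18, limma adjusted p = 0.257). The ratio of tnnt3a to tnnt3b was 0.346 and 0.334 in DMSO and 0.616 and 0.582 in BPC, a log2 difference of 0.82 against a spread of 0.05 between libraries of a group. The share of tnnt3a in the pair was 25.7 and 25.1% in DMSO and 38.1 and 36.8% in BPC. This ratio separated the groups by more than any other ratio between members given above. The authors' deposited table lists 16 transcripts for tnnt3b and 2 for tnnt3a, and the sources used here do not say how isoforms were combined into a gene value.

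In the authors' deposited table, q-values under 0.05 were given to tnnt3a (higher, q = 0.000878), mylpfb (higher, q = 0.0113) and smyhc2 (lower, q = 0.0444), against 19.4% of its 27472 genes. Among the 19873 genes that passed the filter used here, as all 10 members did, such q-values were given to 2593 higher and 2481 lower genes. The authors' deposited table marks 0 of the 10 members as significant. The share of all its genes with that mark was not counted here, so the 0 cannot be set against it. A q under 0.05 alone did not earn that mark. It was absent also for krt5 (deposited log2 ratio 0.70, q = 9.56e-15) and tnni2b.2 (-0.9995, q = 1.09e-08), and given to ppargc1a (-1.08, q = 0.00722). The deposited log2 ratios of tnnt3a, mylpfb and smyhc2 were 0.53, 0.21 and -0.47.

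The direction of several members depended on how the libraries were scaled. Rescaling each library to the same total moved the median of all genes by -0.25 on the log2 scale, centring on the median moved it by 0.15, and quantile normalization moved it by 0.14. The number of members above 0 was 5 with FPKM as deposited, 1 after rescaling to the same total, 6 after centring and 0 after quantile normalization. Relative to the median of all genes, the member median was 0.07, 0.06, 0.07 and -0.42 in that order. The genes smyhc2, smyhc3, myhz1.2 and tnnt3b stayed below 0 under all 4 scalings. The gene tnnt3a was above 0 under 3 of them and at -0.0041 under quantile normalization.

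**Figure D3:**
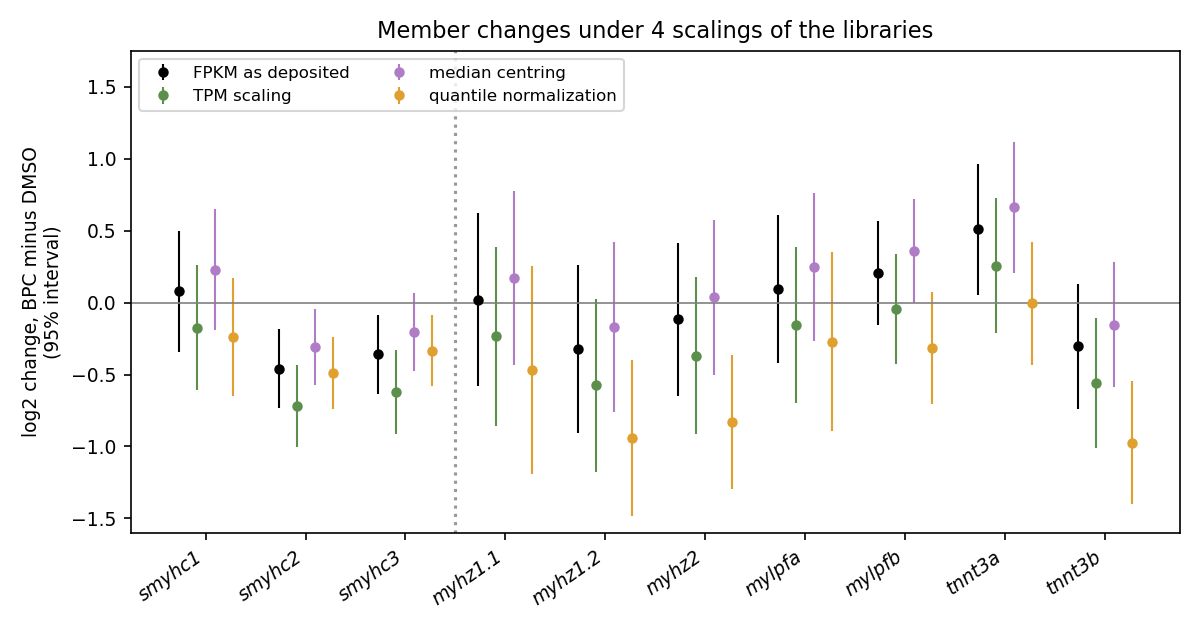
Log2 change of each fibre gene, BPC minus DMSO, with its 95% interval from limma, under 4 scalings of the libraries; the dotted line parts slow from fast genes. The changes of smyhc2, smyhc3, myhz1.2 and tnnt3b stay below 0 under all 4, that of tnnt3a is above 0 under 3 and at -0.0041 under quantile normalization, and those of smyhc1, myhz1.1, myhz2, mylpfa and mylpfb lie on both sides of 0.

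A further row with the symbol myhz1 stood far from the members. The gene ENSDARG00000102414 is described in the file in the same words as myhz1.1, is named myhz1.1l in the gene name table, and lies on another chromosome than myhz1.1 in GRCz12tu. It was singled out after its values were seen. Its level was 21.9 and 19.6 FPKM in DMSO and 1.83 and 2.58 FPKM in BPC. Both BPC libraries were far below DMSO, by 9.40 times on the means, and myhz1.1l fell by 2.77 on the log2 scale (SE 0.15, limma adjusted p = 0.000562), a call kept under every alternative run. It amounted to 1.18 and 1.09% of myhz1.1 in DMSO and to 0.0774 and 0.179% in BPC. The authors' deposited gene list of a KEGG pathway enrichment for a single library pair (replicate 3) holds 424 genes. It includes myhz1.1l, under the pathway Tight junction, and 0 of the 10 members.

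Other genes of the slow fibre were described from a list of 13. Of these, 0 were called higher and 5 lower, with a median log2 change of -0.33 against -0.12 over all genes. The shares of all genes called were 7.06% higher and 17.5% lower. Its more abundant genes tnnc1b, myl10, tpm3 and tnnt2e, singled out after their values were seen, were not called. Their mean levels over the 4 libraries were 165, 205, 67.1 and 46.6 FPKM, and their log2 changes -0.12, -0.26, -0.13 and -0.06. The gene tpm2, at a mean of 46.8 FPKM, was called lower (log2 change -0.36, limma adjusted p = 0.0464). The gene mybpc1 (slow myosin-binding protein C) was at 12.1 and 10.5 FPKM in DMSO and 1.76 and 2.16 FPKM in BPC, and fell by 2.05 on the log2 scale (limma adjusted p = 0.00102). The slow troponin T gene tnnt1 was at 7.50 and 7.64 FPKM in DMSO and 1.72 and 1.35 FPKM in BPC, and fell by 1.76 (limma adjusted p = 0.00161). Both kept the call under every alternative run. The myosin heavy chains myh7bb and myh7ba fell by 1.07 and 0.96. Without DMSO replicate 1 both calls were lost, and that of myh7ba was lost also without DMSO replicate 3 and without the filter.

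Among 28 other fast fibre genes, 1 was called higher and 10 lower, against 7.06% and 17.5% of all genes. The median was -0.22. The fast myosin heavy chain myhb was at 41.8 and 41.0 FPKM in DMSO and 2.97 and 5.96 FPKM in BPC, and fell by 3.01 on the log2 scale (limma adjusted p = 0.0018). The fast troponin I copy tnni2a.1 was at 19.8 and 19.3 FPKM in DMSO and 0.463 and 1.92 FPKM in BPC, and fell by 3.31 (limma adjusted p = 0.00219). The troponin C copy tnnc2.1 was at 11.8 and 15.6 FPKM in DMSO and 1.001 and 2.04 FPKM in BPC, and fell by 2.57 (limma adjusted p = 0.00212). These 3 genes kept the call under every alternative run, and the copy tnni2a.2, which fell by 1.60, lost it without DMSO replicate 1.

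The abundant counterparts of these copies, singled out after their values were seen, did not pass the test in limma. The troponin I gene tnni2a.4 was at 863 and 777 FPKM in DMSO and 1203 and 944 FPKM in BPC (log2 change 0.38, limma adjusted p = 0.150). The troponin C gene tnnc2 was at 1529 and 1418 FPKM in DMSO and 2043 and 1511 FPKM in BPC (log2 change 0.25, limma adjusted p = 0.368). The authors' deposited q-values of tnni2a.4 and tnnc2 were 0.00217 and 0.0371, both for higher levels in BPC. A deposited q under 0.05 was given to 19.4% of all genes in either direction. The summed FPKM of tnni2a.1, tnni2a.2 and tnni2a.3 stood at 3.48 and 3.73% of tnni2a.4 in DMSO and at 0.194 and 0.491% in BPC. Likewise myhb stood at 1.0998 and 1.21% of the 3 fast myosin members in DMSO and at 0.0705 and 0.225% in BPC. In both comparisons each BPC library was below each DMSO library.

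The split between abundant and minor copies was described across 24 families of muscle genes with 2 or more named copies. Families and split were chosen after values had been seen, so no test is given. Of the 24 most abundant copies, 1 was called higher (klhl41b) and 3 lower (myh7bb, mybphb and cavin4a), with a median log2 change of -0.08. Of the 35 other copies, 0 were called higher and 18 lower, with a median of -0.52. Over all genes tested, 7.06% were called higher and 17.5% lower. At an unadjusted p under 0.05, 5 of the 24 most abundant copies and 22 of the 35 other copies passed in either direction. The share of all genes was 40.0%. Ranking the copies in DMSO alone changed the most abundant copy in 0 families. Within families holding members, smyhc2 among the slow myosins and myhb and myhz1.1l among the fast myosins were the copies called lower.

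**Figure D4:**
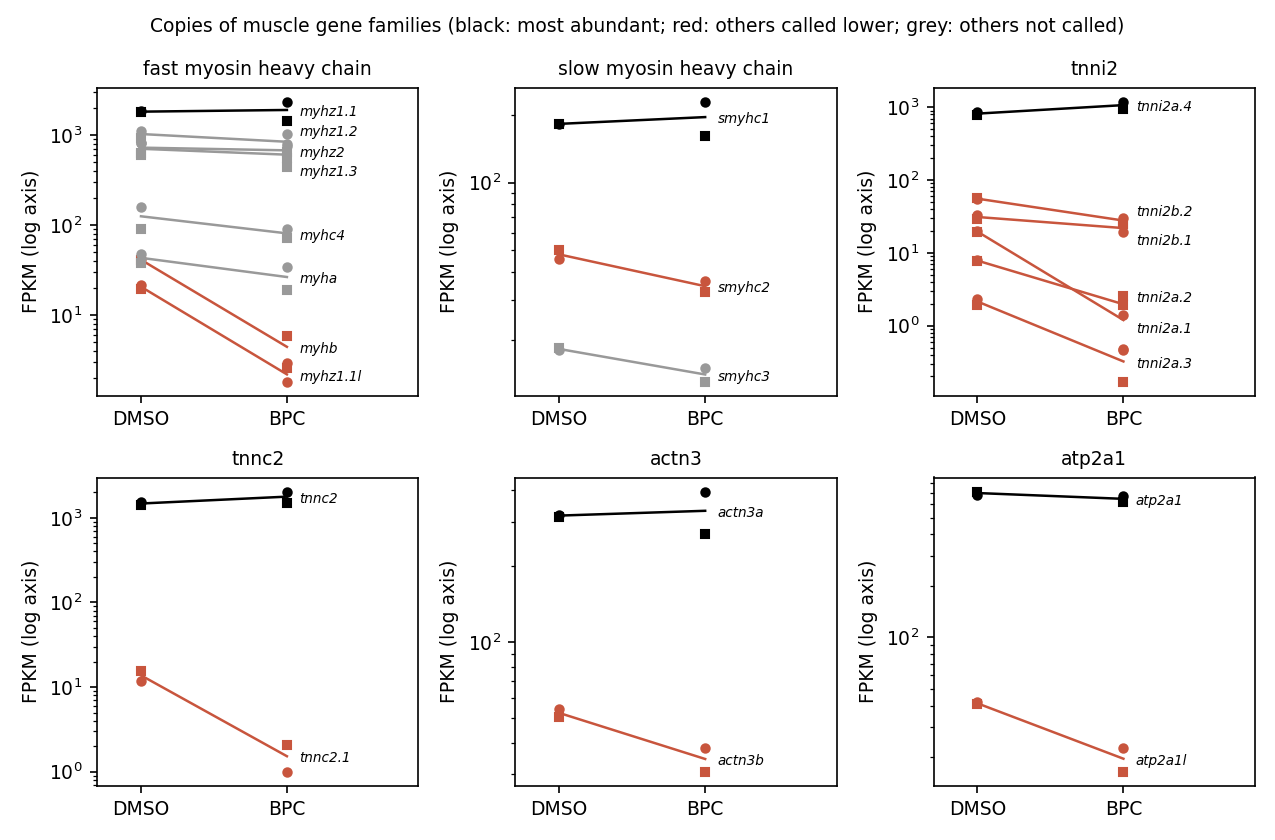
FPKM (log axis) of each copy in 6 muscle gene families, with circles for replicate 1, squares for replicate 3 and lines joining the group means; black marks the most abundant copy, red the other copies called lower in limma, and grey the other copies not called. None of the 6 most abundant copies was called, and the copies with the steepest falls among those drawn are myhb, myhz1.1l, tnnc2.1, tnni2a.1, tnni2a.2 and tnni2a.3. The 6 families are a selection. Of the most abundant copies in all 24 families, 1 was called higher and 3 lower, none of them drawn here.

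Counts of calls also differed with the level of expression. Among the 81 tested genes of the members and of the fibre and sarcomere lists, 28 had a mean of at least 100 FPKM over the 4 libraries, of which 1 was called higher and 0 lower in limma (at an unadjusted p under 0.05, 2 and 2), with a median of -0.11. Of the 53 below that level, 1 was called higher and 26 lower (49.1%), with a median of -0.47. Over all genes tested, those of at least 100 FPKM were called higher in 42.8% and lower in 6.68% (52.3% and 11.6% at an unadjusted p under 0.05). Their median log2 change was 0.43. Those below 100 FPKM were called higher in 6.24% and lower in 17.8%, with a median of -0.12. The split at 100 FPKM was chosen after values were seen.

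**Figure D5:**
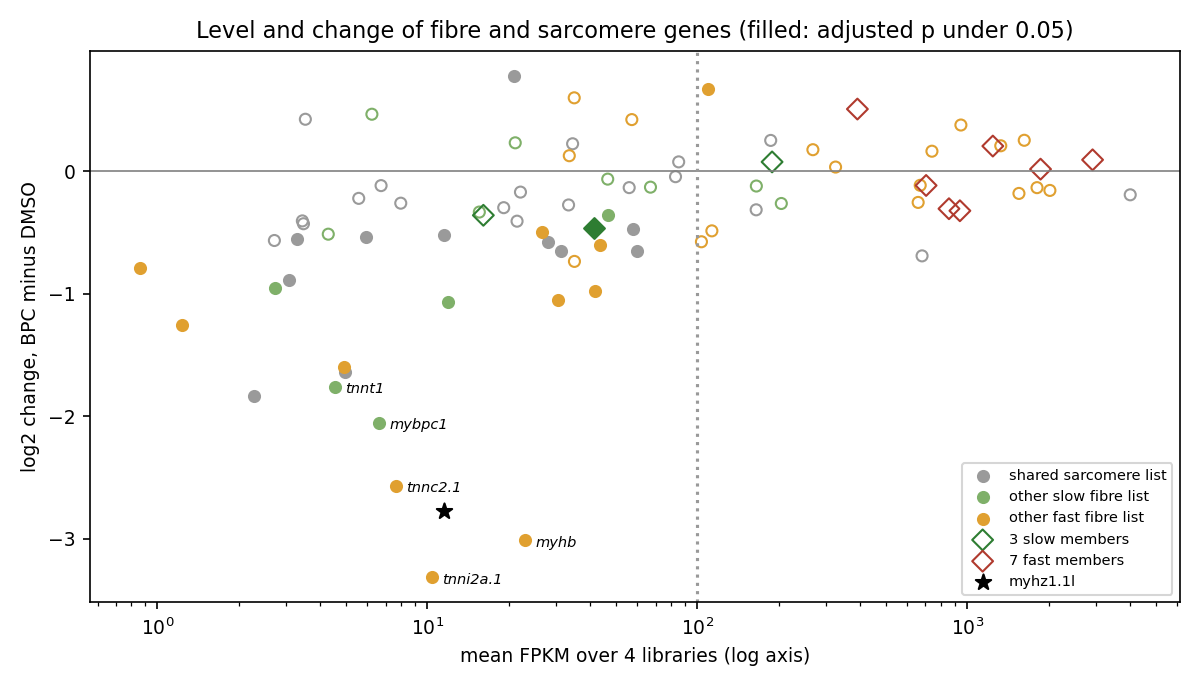
Log2 change (BPC minus DMSO) of the fibre genes and of the slow, fast and shared sarcomere lists against mean FPKM over 4 libraries (log axis); filled symbols have an adjusted p under 0.05 in limma, diamonds are the 10 fibre genes, the star is myhz1.1l and the dotted line marks 100 FPKM. Right of the line the changes run from -0.69 to 0.67 and 1 gene is filled, while left of it 26 genes, smyhc2 among them, are filled below 0, besides the star.

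Sarcomere genes used by both fibre types gave 1 higher and 10 lower calls among 30 tested of 31. The median log2 change was -0.36, and the shares of all genes called were 7.06% higher and 17.5% lower. The intermediate filament gene desmb fell by 1.83 and the myosin-binding protein gene mybpha by 1.63 on the log2 scale. The filamin gene flnca fell by 0.89 and the caveolar gene cavin4a by 0.65. The call of mybpha was lost without DMSO replicate 1, and those of flnca and cavin4a were lost with either DMSO replicate left out. The gene desmb is also on the smooth muscle list, on which all 7 genes were called lower.

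Regulators of fibre type gave 1 higher and 8 lower calls among 23 tested, against 7.06% and 17.5% of all genes. The median was -0.34. The transcription factor genes mef2cb, mef2d and mef2aa, which switch on muscle structural genes, fell by 0.77, 0.63 and 0.62, and prox1a, which acts in slow fibres, by 0.53. Each of these 4 calls was lost with either DMSO replicate left out. The other lower calls, added after values were seen, were those of ppargc1a, vgll2a, nfatc1 and ppargc1b. Their log2 changes were -0.90, -0.68, -0.62 and -0.57. The higher call was that of smo, at 0.67. A further pair of genes on this list, singled out after their values were seen, did not pass the test: prdm1a, which directs the slow fate in zebrafish, was at 4.62 and 5.45 FPKM in DMSO and 6.13 and 8.72 FPKM in BPC (limma adjusted p = 0.0990), and sox6, which holds back slow genes in fast fibres, was at 8.39 and 8.08 FPKM in DMSO and 6.06 and 6.58 FPKM in BPC (limma adjusted p = 0.0757).

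Myogenic factors and fusion genes gave 2 higher and 4 lower calls among 17 tested of 18, against 7.06% and 17.5% of all genes. The median was -0.004. The myogenic factor gene myf6 fell by 0.74 and the adhesion gene cdh15 by 0.56. The fusion genes jam2a and mymk rose by 0.64 and 0.61. All 4 calls were lost with either DMSO replicate left out, and those of jam2a and mymk were lost also when libraries were rescaled to the same total.

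Calcium handling and upkeep of the fibre were covered by further lists. Excitation-contraction genes gave 0 higher and 5 lower calls among 21 tested of 25, against 7.06% and 17.5% of all genes. The median was -0.33. The triadin gene trdn fell by 0.87, the calcium channel subunit gene cacnb1 by 0.82, the sodium channel gene scn4ab by 0.72 and the calcium release channel gene ryr1a by 0.57. All 4 calls were lost with either DMSO replicate left out. Myosin folding genes gave 0 calls among 8 tested of 9 in limma, and 0 higher and 1 lower at an unadjusted p under 0.05, where the shares of all genes were 12.2% and 27.8%. The chaperone genes hsp90aa1.1 and hsp90aa1.2 were at 34.7 and 20.6 FPKM and at 29.6 and 18.6 FPKM in BPC, around DMSO levels of 30.4 and 33.1 FPKM and of 23.7 and 28.0 FPKM.

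Genes of muscle breakdown gave 1 higher and 2 lower calls among 10 tested, against 7.06% and 17.5% of all genes. The median was -0.06. The muscle calpain gene capn3a was at 2.61 and 0.822 FPKM in DMSO and 12.9 and 8.80 FPKM in BPC, and rose by 2.19 on the log2 scale (limma adjusted p = 0.00772). The ubiquitin ligase gene trim63a fell by 0.82 and the transcription factor gene foxo3a by 0.50, and both calls were lost with either DMSO replicate left out. Over all the other skeletal muscle lists, 6 genes were called higher and 44 lower among 149 tested of 156. The median was -0.26, and the shares of all genes called were 7.06% higher and 17.5% lower.

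Markers of other cell types moved between the groups as well. For comparison with the counts of these lists, 7.06% of all genes tested were called higher and 17.5% lower. Of 11 cardiac genes, 5 were higher and 1 lower, with summed levels of 80.5 and 87.1 FPKM in DMSO and 132 and 119 FPKM in BPC. The natriuretic peptide genes nppa and nppb rose by 2.26 and 1.42. The cardiac light chain gene myl7 rose by 0.88 and the ventricular myosin gene vmhcl by 0.83. Both BPC libraries were above both DMSO libraries for 7 of the 11 and below for 2, against 23.0% and 45.1% of all genes. The myosin gene vmhc and the light chain gene myl4, singled out after their values were seen, had deposited log2 ratios of -0.32 and -0.57. Of 7 smooth muscle genes, 0 were higher and 7 lower, with sums of 88.8 and 65.1 FPKM in DMSO and 15.6 and 19.1 FPKM in BPC. The smooth muscle actin gene acta2 fell by 3.06, the smooth muscle myosin gene myh11a by 2.11 and the smoothelin gene smtnb by 1.32.

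Of 5 neuronal genes, 0 were higher and 4 lower, with sums of 235 and 229 FPKM in DMSO and 145 and 168 FPKM in BPC. The synaptic gene snap25b fell by 1.37, gad1b by 0.79, slc17a6b by 0.50 and snap25a by 0.46. Of 5 epidermal genes, 3 were higher and 0 lower, with sums of 4924 and 4918 FPKM in DMSO and 11131 and 9209 FPKM in BPC. The keratin genes krt4 and krt5 rose by 1.17 and 0.70 and the claudin gene cldni by 0.79, except that krt5 was at -0.067 under quantile normalization. The keratin gene krt17 and tp63, on the same list and singled out after their values were seen, were not called. Their deposited log2 ratios were -0.33 and 0.003. The calls of vmhcl, nppb, the named neuronal genes, krt4, krt5 and cldni were lost with either DMSO replicate left out. That of myl7 was lost without DMSO replicate 1. No marker on these lists was listed at 0. The part of these shifts in the values of the muscle genes was not tested.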

How the data were processed

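RNA from 2 DMSO and 2 BPC libraries (4 in all) of AB zebrafish at 72 hpf was measured by sequencing of polyadenylated RNA. The authors deposited FPKM per gene and library, per the file headers. The authors' deposited table also gives a ratio of mean FPKM (a fold), its log2, a p-value and a q-value per gene. Tools named without roles in the submitters' processing notes are edgeR, DESeq2, StringTie 1.3.4d, HISAT2 2.0.4 and cutadapt 1.9. Which genome build was used is not given in the sources here. They also do not say whether counting used strand, which leaves overlapping genes uncertain. Depth is unknown, since low values showed no common step.

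Genes reaching 0.5 FPKM in 2 or more libraries were tested on log2(FPKM + 1), two-sided, in limma 3.58.1 (R 4.3.3), with group as the only term and an intensity trend. On this scale, changes of low genes are understated. P-values were Benjamini-Hochberg adjusted over 19873 genes with a threshold of 0.05. A ratio's log2 difference is that of mean log2 values, and its spread is the pooled SD of the libraries. The script was tested on simulated data.

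The members and lists were chosen with earlier results of these data known. Named were all 10 members and, from each list, up to 4 called genes with the smallest p, or else the 2 highest in FPKM. Of 201 list symbols, 196 matched. The gene name table held 25272 of the 27472 identifiers. Alternatives were other pseudocounts, no filter, 3 scalings, no trend, the replicate number as a block and leaving out each library. The authors' KEGG enrichment values were not used.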

Additional observations from a re-analysis of the deposited data

How the results depend on the processing

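The p-values rest on 2 libraries a group, depth is unknown, and how reads were split between related copies was not measured. Over all genes, 1404 were called higher and 3480 lower; the counts were 748 and 2020 without the filter, 759 and 7286 with libraries rescaled to the same total, 2441 and 1997 with median centring, 1948 and 2111 with quantile normalization, and 149 to 2040 and 452 to 3983 leaving out each library, both lowest without DMSO replicate 1. The lower share of calls moved from 71.3% to 90.6% (same total), 45.0% (centring) and 52.0% (quantile). For the members, 1 lower call became 0 without the filter, 2 with the same total (smyhc2 and smyhc3) and 0 with centring. With quantile normalization it became 4 (smyhc2, tnnt3b, myhz1.2 and myhz2). The 0 higher calls stayed at 0 in these runs. Without BPC replicate 3, the log2 changes of tnnt3a and smyhc1 were 0.77 and 0.33. Without BPC replicate 1, those of smyhc2, smyhc3, tnnt3b and myhz1.2 were -0.54, -0.45, -0.53 and -0.66. For the other skeletal muscle lists, 6 higher and 44 lower calls became 2 and 28 without the filter, 3 and 81 with the same total, 10 and 27 with centring, and 1 to 17 and 6 to 57 leaving out each library. In the families, 1 higher and 3 lower calls of the most abundant copies became 0 higher without the filter, 5 lower with the same total, 6 lower with quantile normalization, and 0 to 6 higher and 0 to 8 lower leaving out each library; 0 higher and 18 lower calls of the other copies became 0 to 2 and 5 to 23. The slow to fast log2 difference of 0.06 ran from -0.06 to 0.17 leaving out each library. It was -0.35 without smyhc1 and -0.02 to 0.19 without each other gene of the ratio in turn. The gene krt5 reversed to -0.067 with quantile normalization. The cause of these moves was not tested. The labels do not say what the replicate numbers share, and the deviations of same-numbered libraries correlated at 0.00805, so the numbers were not taken to pair the samples; the fit with the replicate block called 1333 genes higher and 3282 lower, and 0 members higher and 1 lower.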
